A study of Mus musculus with 18 samples.

Results

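The 6 RNA-seq libraries described here come from wild-type (WT) mouse stromal-vascular cells of inguinal fat, the subcutaneous depot of the groin, taken before (day 0, 3 libraries) and after (day 7, 3 libraries) adipogenic induction in culture. They were chosen by their sample titles and are 6 of the 18 libraries of a series that concerned, by its title, the transcription factor NFIA and its opposite action on 2 gene sets of adipocytes, mitochondrial and inflammatory. The other libraries are iWAT, the inguinal white fat itself, from WT and NFIA-Tg mice, and day 0 and day 7 cultures labelled NFIA-Tg, a transgene for NFIA whose promoter the labels do not state. All groups hold 3 libraries. The WT cultures carry no transgene by their labels. The labels used here state neither strain, age nor sex, nor whether replicates came from separate animals or dishes. The p-values below thus rest on the spread among these libraries alone, and that spread may be technical. Per the labels' protocols, cells were grown in Dulbecco's modified Eagle's medium with 10% fetal bovine serum. At confluence they received 0.5 mM isobutylmethylxanthine, 125 nM indomethacin, 1 μM dexamethasone, 850 nM insulin, 1 nM T3 and 1 μM rosiglitazone for 48 hours, and then only insulin, T3 and rosiglitazone at these doses. Day 0 cells were thus sampled before any of these agents, and day 7 cells in the presence of insulin, thyroid hormone and rosiglitazone, so differentiation and exposure to the agents cannot be told apart.

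Adipogenesis is driven by a relay of transcription factors. C/EBPβ and C/EBPδ act early and induce PPARγ and C/EBPα, which then hold each other on and switch on the genes of lipid uptake, lipid storage and adipokine secretion. The agents of the cocktail act on this relay: isobutylmethylxanthine raises cAMP, dexamethasone is a glucocorticoid, T3 is thyroid hormone, and rosiglitazone is a PPARγ agonist. Stromal-vascular preparations of fat hold preadipocytes and fibroblasts and can also hold endothelial cells, pericytes, mesothelial cells and immune cells.

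The libraries held 21990174 to 24842080 reads at day 0 and 21420797 to 25113743 at day 7, recovered from the deposited values. Expression is given as FPKM (fragments per kilobase of gene length, scaled to library depth), with the 3 replicates in order, and a log2 change is the day 7 minus the day 0 mean of log2(FPKM + 1) ± SE, which understates the change of low genes. Changes were tested with limma, and a gene was called at a Benjamini-Hochberg adjusted p under 0.05. Of 12553 genes tested, 10246 were called (81.6%), 5796 higher (46.2%) and 4450 lower (35.4%) at day 7. At an unadjusted p under 0.05, 10360 passed. Because most genes were called, a count of calls says little, and the size of a change says more: 1762 called genes (14.0%) were higher by at least 1 on the log2 scale and 1299 (10.3%) were lower by at least 1. The median log2 change over all genes tested was 0.095. The split of the calls depended on the scaling, with 5197 higher and 5043 lower after median-of-ratios scaling, 4632 and 5492 on TPM, and 4738 and 5532 after quantile normalization. TPM and quantile normalization moved the median over all genes to -0.061 and -0.054, a shift of over 0.1, so changes below are to be read relative to it.

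Among the day 7 libraries, replicate 3 stood apart. Its recovered reads differed from those of replicates 1 and 2 by chi-square (24.1 and 19.95 per degree of freedom), against 4.39 to 6.10 for the other pairs of WT libraries of a day. Replicate 3 had the lowest of the 3 day 7 values in 27 of 27 tested genes of glucose uptake and glycolysis, in 12 of 15 adipokines and in 16 of 18 lipid droplet genes. It had the highest in 21 of 23 chemokines and cytokines, 34 of 41 interferon-stimulated genes and 14 of 21 preadipocyte and stromal markers. Over all 12553 genes it was lowest in 4271 and highest in 4741. The median distance of replicate 3 from the mean of the other 2 libraries was -0.33 on the log2 scale for glycolysis and 0.21 for chemokines. Without this library, the called members of the 40 lists with at least 5 tested members changed by -4 to 2 higher and by -1 to 1 lower, and no list median moved by more than 0.2. The largest shift in calls was in the interferon-stimulated list, from 16 to 12 higher.

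**Figure D1:**
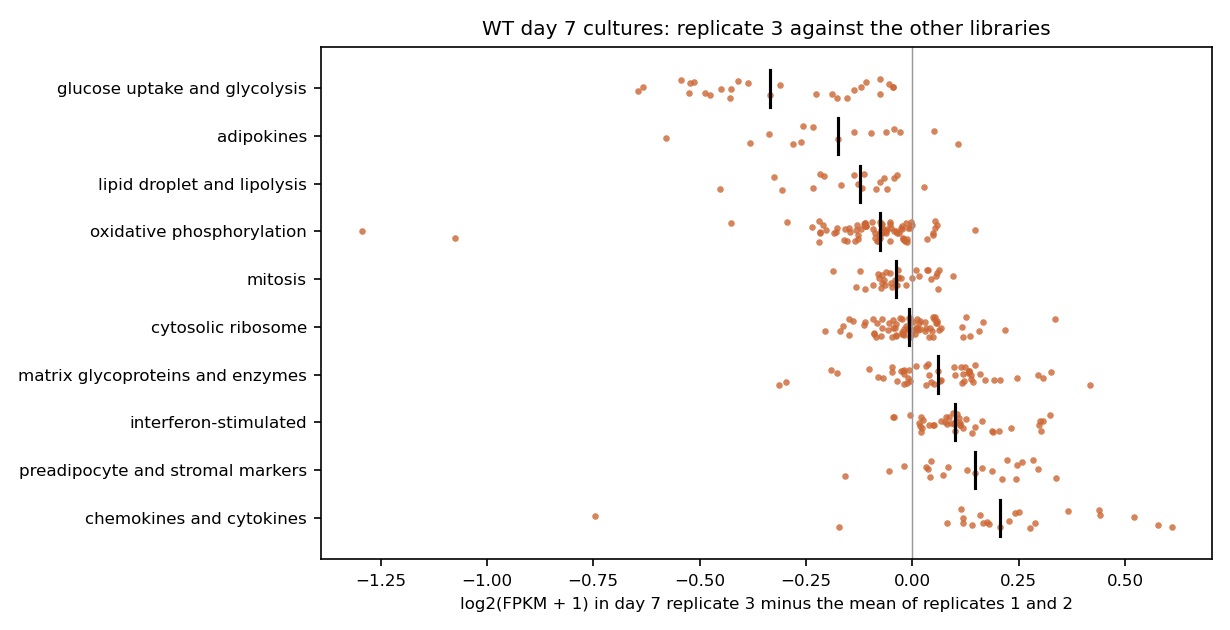
Each point is a gene: its log2(FPKM + 1) in WT day 7 replicate 3 minus the mean of replicates 1 and 2 (x axis), for 10 gene lists (y axis), with the list median as a black bar. The 27 glycolysis genes all lie to the left of 0, and 21 of 23 chemokine and cytokine genes to the right of it.

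The label of the day 7 libraries was set against markers. Of 12 markers of mature adipocytes, 11 passed the filter on low values and all 11 were called higher, with a median log2 change of 8.67. Together they took 0.00256% of reads at day 0 and 2.45% at day 7 (means of 3 libraries). The exception was the leptin gene Lep, which was listed at 0 in the 3 day 0 libraries and at 0.0611, 0.0717 and 0.0697 FPKM at day 7, too low to be tested. The filter asked for at least 1 FPKM in at least 3 of the 12 culture libraries. A marker near 0 at WT day 0 could thus pass only through other libraries. For such markers the direction of the call was largely fixed, so the count of calls does not check the label. The same limit holds for the counts and medians of lists below with members near 0 at WT day 0, such as adipokines and lipid droplet genes. By their levels, the day 7 libraries held the markers of adipocytes at high level, with Lep listed near 0.

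Most markers of other cell types did not pass the filter at either day. Of 16 macrophage markers 5 passed it (2 called higher, 3 lower). Adgre1, Ptprc, Tyrobp and the 3 C1q genes were listed at 0 in all 6 libraries. The summed macrophage list took 0.00244 to 0.00328% of reads at day 0 and 0.00376 to 0.00392% at day 7. Of 12 endothelial markers 4 passed (1 higher, 3 lower), and Cldn5, Robo4 and Sox17 were listed at 0 in all 6 libraries. That list took 0.00415 to 0.00487% of reads at day 0 and 0.00139 to 0.0015% at day 7. None of 8 lymphocyte, 5 epithelial, 3 erythroid or 4 mast cell markers passed. The macrophage marker Mpeg1 rose from 1.72, 3.94 and 3.27 to 7.23, 6.97 and 7.08 FPKM (log2 change 1.07 ± 0.22, adjusted p = 0.000586), while Lyz2 fell from 3.06, 3.53 and 3.58 to 0.113, 0.442 and 0.43 FPKM. Endothelial Tek fell from 6.18, 7.13 and 6.44 to 1.18, 1.08 and 1.19 FPKM. Of 6 pericyte markers 3 passed (2 called higher, 1 lower), and only 1 was higher by at least 1 on the log2 scale. This was Mcam, which rose from 4.14, 3.82 and 3.65 to 46.2, 46 and 45 FPKM (log2 change 3.26 ± 0.07, adjusted p = 1.89e-13). Rgs5, Kcnj8 and Abcc9 stayed below the filter. Mesothelial Krt19 fell from 25.7, 27.1 and 26.4 to 7.94, 6.9 and 7.16 FPKM. In these bulk libraries, fewer cells of a type and less RNA per cell cannot be told apart.

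**Figure D2:**
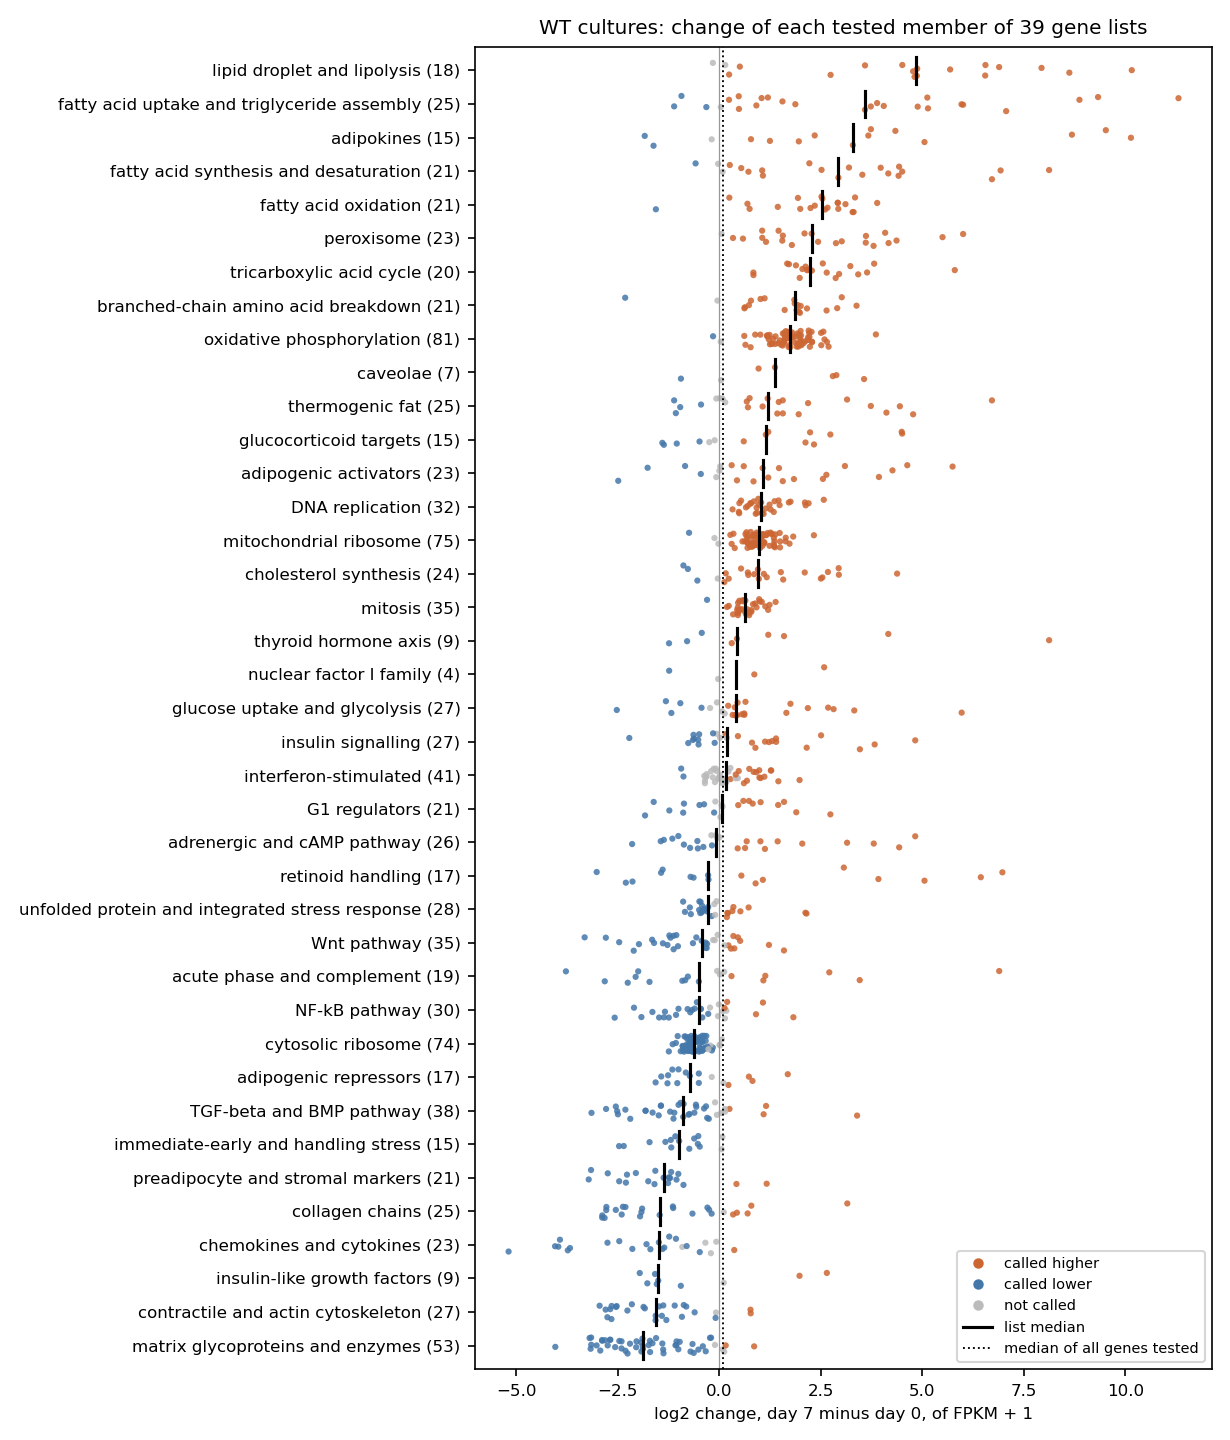
Each point is a tested gene: its log2 change from day 0 to day 7 (x axis) in 39 gene lists (y axis, number tested in brackets), coloured by its call, with the list median as a black bar and the median of all genes (0.095) dotted. Lipid droplet genes lie at the top with a median of 4.84 and matrix glycoproteins and enzymes at the bottom with -1.88.

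Transcription factors of the adipogenic relay changed unequally. Pparg, the gene of PPARγ, stood at 3.71, 3.68 and 3.67 FPKM at day 0 and 72.3, 69.3 and 70.4 FPKM at day 7 (log2 change 3.93 ± 0.05, adjusted p = 1.79e-15). Cebpa, its partner in terminal differentiation, went from 7.2, 7.2 and 7.91 to 173, 147 and 165 FPKM (log2 change 4.27 ± 0.08, adjusted p = 9.89e-14). For both, the 3 day 7 libraries lay far above the 3 day 0 libraries with little spread. The early members of the relay were lower at day 7. Cebpd fell from 29.5, 31.3 and 36.3 to 5.67, 4.3 and 4.92 FPKM (log2 change -2.48 ± 0.14, adjusted p = 3.44e-09), and Cebpb from 33.2, 37.1 and 41.9 to 28.5, 14.9 and 19.8 FPKM (log2 change -0.84 ± 0.18, adjusted p = 0.000894), with no overlap between days but a wide spread at day 7 for Cebpb. Cebpg, a further member of the family, rose from 13.7, 13.4 and 13.8 to 25.8, 25 and 26.5 FPKM. In the PPAR family, Ppard had 13.4, 12.5 and 12.7 FPKM at day 0 and 14.1, 13 and 12.3 FPKM at day 7 and was not called (adjusted p = 0.669), and Ppara, prominent in brown fat and liver, rose only to 2.31, 2.48 and 2.03 FPKM. Pparg therefore passed Ppard in level between the days: at day 0 Ppard was the higher of the pair in all 3 libraries and at day 7 Pparg was.

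The lipogenic factors rose with them. Mlxipl encodes ChREBP, the glucose-sensing activator of lipogenesis. It was listed at 0, 0.0122 and 0.0217 FPKM at day 0 and 58.1, 54.1 and 48.1 FPKM at day 7 (log2 change 5.75 ± 0.07, adjusted p = 1.76e-15). Srebf1, the SREBP-1 gene, rose from 24.9, 24.1 and 23.9 to 212, 229.9 and 204 FPKM (log2 change 3.10 ± 0.05), and Nr1h3, the gene of the oxysterol receptor LXRα, from 1.65, 1.79 and 2.08 to 68.5, 74.5 and 65 FPKM (log2 change 4.63 ± 0.07). The RXR partners of PPARγ moved less, except for one. Rxra rose from 23.2, 22.9 and 22.9 to 31, 32.8 and 30.8 FPKM and Rxrb from 15.2, 14.3 and 14 to 20.02, 19.1 and 18.2 FPKM. Rxrg went from 0, 0.0385 and 0 to 4.53, 5.67 and 4.71 FPKM (log2 change 2.55 ± 0.07). Of 23 tested adipogenic activators, 16 were called higher and 4 lower, 12 of them higher by at least 1.

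Of 17 tested factors reported to hold adipogenesis back, 11 were called lower and 4 higher, 7 of them lower by at least 1. Zfp521, a zinc-finger repressor of adipogenic commitment, fell from 16.4, 16.7 and 16 to 4.3, 5.1 and 5.23 FPKM (log2 change -1.56 ± 0.07). Klf2, a repressor of Pparg, fell from 9.72, 10.4 and 9.66 to 3.2, 3.19 and 2.83 FPKM (log2 change -1.43 ± 0.12). The exceptions rose without overlap between days. Foxo1, a target of insulin signalling, rose from 4.66, 5.05 and 4.92 to 18.5, 18 and 17.3 FPKM, and Wwtr1, the gene of the Hippo effector TAZ, from 28, 27.2 and 27.5 to 47.2, 50.1 and 51.2 FPKM. Dlk1, the preadipocyte factor Pref-1, was low at both days and higher at day 7 (0.629, 0.605 and 0.51 against 1.73, 1.35 and 1.82 FPKM, log2 change 0.73 ± 0.09, adjusted p = 6.73e-06). These cultures thus held little of this preadipocyte marker before induction.

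**Figure D3:**
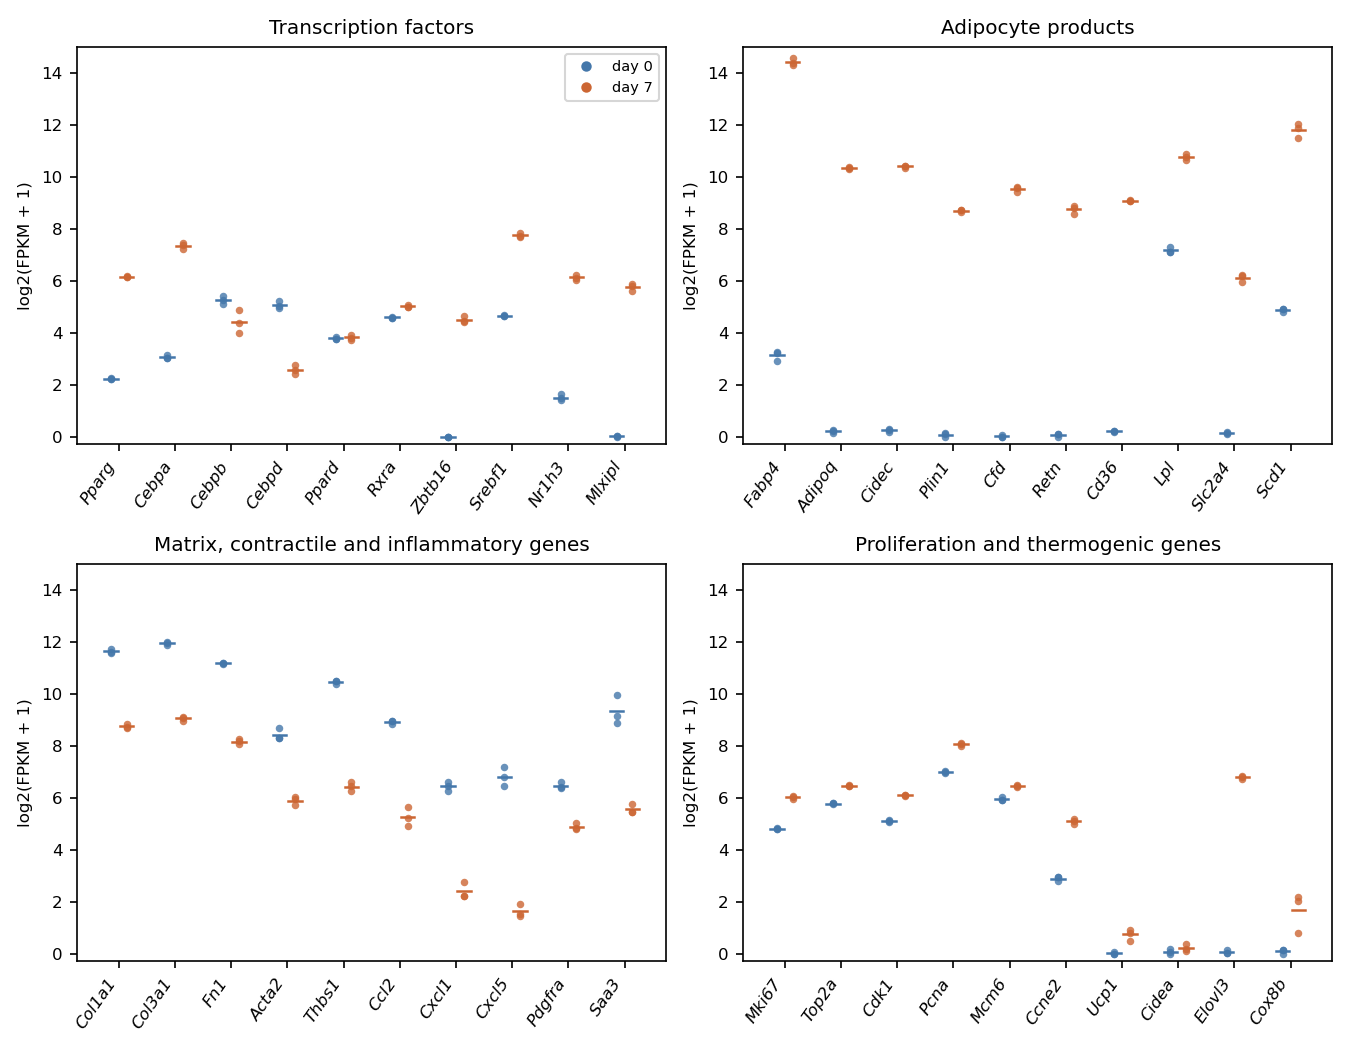
Expression of 40 genes as log2(FPKM + 1) (y axis), with a point for each of the 3 WT libraries at day 0 (blue) and day 7 (orange) and a bar for their mean. The days are separated for most genes shown, while Ppard and Cidea overlap and Ucp1 stays under 1 FPKM.

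Genes of the adipocyte product programme made up the largest changes of all. Fabp4 encodes the fatty acid carrier aP2. It stood at 8.34, 6.48 and 8.45 FPKM at day 0 and 24634, 20249 and 21624 FPKM at day 7 (log2 change 11.31 ± 0.15, adjusted p = 2.9e-15), and at day 7 it was the most abundant gene by FPKM, taking 1.51% of reads. Next came Cidec, a protein that enlarges lipid droplets, with 0.193, 0.212 and 0.14 FPKM at day 0 and 1371, 1381 and 1297 FPKM at day 7 (log2 change 10.16 ± 0.09, adjusted p = 1.17e-16). Adipoq, the adiponectin gene, followed with 0.168, 0.185 and 0.098 and 1284, 1275 and 1325 FPKM (log2 change 10.14 ± 0.06, adjusted p = 5.11e-18). These genes were near the detection limit at day 0, except for Fabp4, and reached the level of the most abundant genes at day 7 in every library.

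The other 9 of the 12 largest increases were as follows. Cfd, which encodes the serine protease adipsin, rose by 9.52 ± 0.06 and Gpd1, which supplies glycerol 3-phosphate for triglycerides, by 9.33 ± 0.06. Cd36, a fatty acid translocase, rose by 8.87 ± 0.04, Retn (resistin) by 8.69 ± 0.10, and the carbonic anhydrase gene Car3 by 8.67 ± 0.26. The droplet coat gene Plin1 rose by 8.62 ± 0.08, Thrsp (the lipogenic Spot 14) by 8.12 ± 0.10, Adig (adipogenin) by 8.05 ± 0.06, and G0s2, an inhibitor of the lipase ATGL, by 7.94 ± 0.12.

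Among the adipokines, 12 of 15 tested genes were called higher and 2 lower (median log2 change 3.29). For members near 0 at day 0, such as Adipoq, Retn, Cfd and Nrg4, the direction of the call was largely fixed by the filter. Retn went from 0.0644, 0 and 0.0626 to 444, 469 and 376 FPKM, Cfd from 0, 0.0493 and 0 to 789, 762 and 687 FPKM, and Nrg4, a secreted factor of brown fat, from 0, 0.0236 and 0.0418 to 13.4, 14 and 10.7 FPKM (log2 change 3.74 ± 0.09). Metrnl fell from 14.2, 15.2 and 14.5 to 3.42, 3.14 and 3.61 FPKM (log2 change -1.83 ± 0.08). Vegfa, the angiogenic factor, had 69.5, 65.7 and 73.8 FPKM at day 0 and 70.03, 63.9 and 51.1 FPKM at day 7, overlapping ranges, and was not called (adjusted p = 0.096). Its lowest day 7 value was that of replicate 3, and it was called lower without day 7 replicate 1 (adjusted p = 0.0153) and under each of 3 other scalings.

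The lipid droplet and lipolysis list had the highest median of the 39 lists (4.84). Of 18 tested genes 16 were called higher and none lower. For members near 0 at day 0, such as Plin1, Plin5 and Aqp7, the direction was largely fixed by the filter, so the count and median rest partly on them. Plin1 went from 0.0865, 0 and 0.063 to 421, 418 and 398 FPKM, Plin4 from 0.605, 0.672 and 0.504 to 142, 166 and 139.6 FPKM (log2 change 6.56 ± 0.07), and Plin5, a coat protein of oxidative tissues, from 0, 0.0223 and 0 to 29.1, 28.4 and 22.7 FPKM (log2 change 4.78 ± 0.08). Plin2, the coat protein of small droplets in many cell types, was present before induction and rose from 35.5, 40.6 and 38.1 to 912, 892 and 861 FPKM (log2 change 4.51 ± 0.06). Plin3 had 31.7, 31.3 and 32.2 FPKM at day 0 and 28.2, 31.7 and 25.6 FPKM at day 7 and was not called (adjusted p = 0.0663). It was called lower under each of 3 other scalings, on recovered reads (adjusted p = 0.0493) and without day 7 replicate 2 (log2 change -0.23, adjusted p = 0.00772). The order of the family turned over: Plin2 and Plin3 led at day 0, Plin2 and Plin1 at day 7. Both neutral lipases rose, Pnpla2 (ATGL) from 5.18, 4.99 and 5.44 to 579, 613 and 549 FPKM (log2 change 6.55 ± 0.06) and Lipe (hormone-sensitive lipase) from 1.57, 1.4 and 1.71 to 309.9, 312 and 288 FPKM (log2 change 6.89 ± 0.07), together with the ATGL inhibitor G0s2, which went from 2.46, 2.27 and 3.63 to 953, 933 and 863 FPKM. Aqp7, the channel through which glycerol leaves the adipocyte, rose from 0.0328, 0 and 0.0159 to 29.1, 28.7 and 24.9 FPKM.

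Fatty acid uptake and triglyceride assembly followed the same pattern, with 21 of 25 tested genes called higher, 17 of them by at least 1, and 3 lower (median 3.59). Lpl, the lipoprotein lipase gene, was already at 138, 135 and 158 FPKM and rose to 1609, 1746 and 1865 FPKM (log2 change 3.59 ± 0.07). Cd36 rose from 0.158, 0.127 and 0.164 to 533, 547 and 532 FPKM. Of the acyl-CoA synthetases, Acsl1 rose from 6.48, 5.9 and 7.59 to 1000.0, 1027 and 1034 FPKM (log2 change 7.07 ± 0.08), while Acsl3 and Acsl5 rose by 1.05 ± 0.06 and 0.49 ± 0.06, and Acsl4 was not called (adjusted p = 0.692). Acsl1 thus went from the lowest of these 4 genes at day 0 to by far the highest at day 7. Diacylglycerol acyltransferases catalyse the last step to triglyceride. Dgat2 rose from 3.07, 2.87 and 3.36 to 144, 147 and 135 FPKM (log2 change 5.13 ± 0.07) and Dgat1 from 12.1, 12.7 and 13.5 to 234, 226 and 221 FPKM (log2 change 4.05 ± 0.05). Of the lipins, Lpin1 rose from 4.68, 5.06 and 4.57 to 86.8, 88.2 and 78.6 FPKM (log2 change 3.89 ± 0.06), whereas Lpin2 fell by 0.32 and Lpin3 by 0.93. Fabp5, the epidermal fatty acid-binding protein gene, exceeded Fabp4 at day 0 with 43.3, 37 and 41.6 FPKM and reached 1334, 1132 and 1231 FPKM at day 7, far below Fabp4. Fabp3 of the same family fell from 1.75, 1.28 and 1.7 to 0.373, 0.146 and 0.071 FPKM.

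Most genes of fatty acid synthesis rose, with 18 of 21 tested genes called higher, 15 by at least 1, and 1 lower (median 2.94). Scd1, a desaturase that makes oleate, went from 28.9, 26.6 and 29.3 to 4145, 3793 and 2877 FPKM (log2 change 6.93 ± 0.13) and became the second most abundant gene by FPKM. Replicate 3 was the lowest of the day 7 libraries. Scd2 rose from 146, 131 and 146 to 695, 696 and 593 FPKM (log2 change 2.22 ± 0.08). Scd2 was the leading desaturase at day 0 and Scd1 at day 7. Scd3 and Scd4 are close copies and can share reads, so their low values are uncertain. Acaca, the cytosolic acetyl-CoA carboxylase gene, rose from 10.2, 10.05 and 10.1 to 131, 129.7 and 121 FPKM (log2 change 3.53 ± 0.05), and its mitochondrial counterpart Acacb from 0.938, 1.11 and 1.03 to 48.4, 47 and 40.1 FPKM (log2 change 4.51 ± 0.07). Me1, malic enzyme, which supplies NADPH, rose from 30.2, 30.7 and 31.2 to 550.2, 575 and 577 FPKM (log2 change 4.16 ± 0.05). The member that fell was the elongase Elovl6, from 7.18, 6.84 and 6.75 to 4.0, 4.57 and 4.35 FPKM (log2 change -0.58 ± 0.08).

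**Figure D4:**
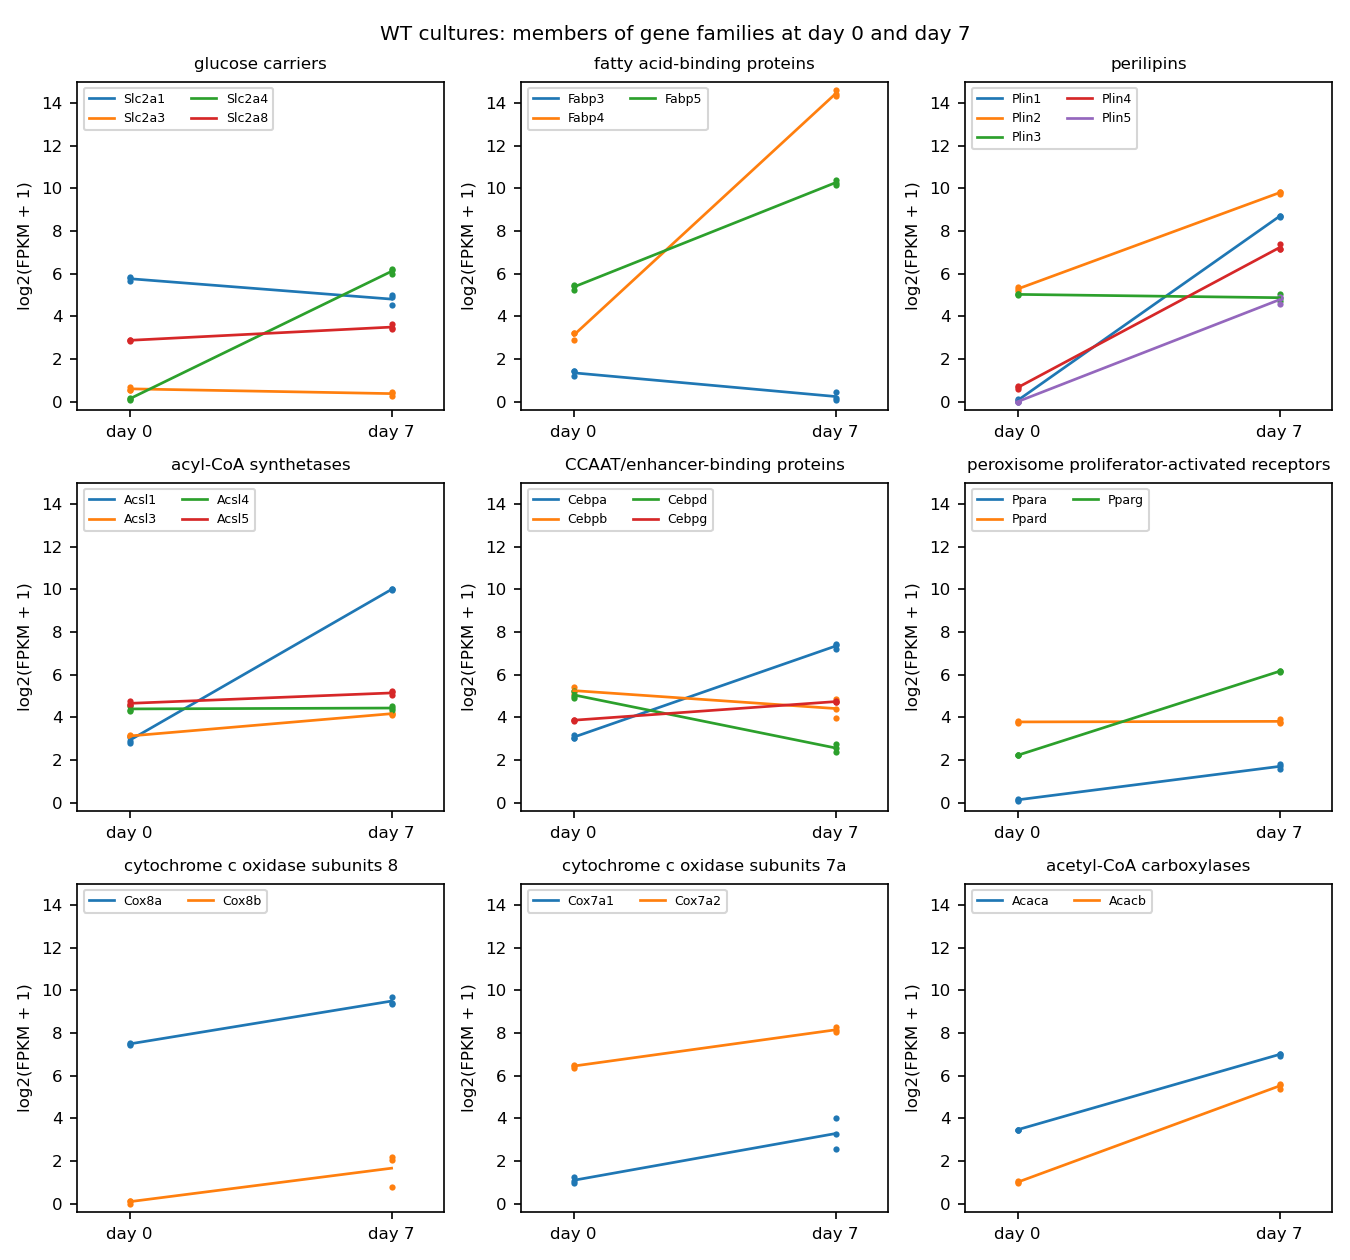
Expression as log2(FPKM + 1) (y axis) of the tested members of 9 gene families at day 0 and day 7 in WT cultures, with a point per library and a line between the means. Slc2a4, Plin1 and Acsl1 start among the lowest of their families and rise most, while Cebpb and Cebpd fall and Acsl4, Plin3 and Ppard were not called.

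Of 24 cholesterol synthesis genes, 20 were called higher, 11 by at least 1, and 3 lower (median 0.97). Pmvk, phosphomevalonate kinase, rose from 10.2, 10.1 and 9.8 to 85.8, 86.4 and 80.1 FPKM (log2 change 2.95 ± 0.05) and Fdps, farnesyl diphosphate synthase, from 63.9, 64.4 and 66 to 196, 204 and 185 FPKM (log2 change 1.58 ± 0.07). Insig1, which retains the SREBP processing complex in the endoplasmic reticulum, rose from 27.9, 26.7 and 28.7 to 588, 614 and 593 FPKM (log2 change 4.38 ± 0.04). The regulators Srebf2 and Scap went the other way, Srebf2 from 56.9, 51.3 and 54.1 to 36.9, 38.8 and 35.2 FPKM (log2 change -0.54 ± 0.05) and Scap, the sterol sensor, from 34.7, 34.6 and 33.9 to 19.4, 20.1 and 19.8 FPKM (log2 change -0.77 ± 0.04). Most enzymes and their regulators Srebf2 and Scap therefore moved in opposite directions.

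For glucose uptake, the carrier expressed changed. Slc2a4 encodes the insulin-responsive carrier GLUT4. It stood at 0.0731, 0.128 and 0.114 FPKM at day 0 and 71.3, 72.7 and 61.4 FPKM at day 7 (log2 change 5.97 ± 0.06, adjusted p = 4.61e-16). Slc2a1, the gene of the basal carrier GLUT1, fell from 56.6, 49.6 and 54.4 to 31.5, 28.6 and 22 FPKM (log2 change -0.96 ± 0.10, adjusted p = 2.12e-06). At day 0 Slc2a1 was above Slc2a4 in all libraries, and at day 7 the order was the opposite in all libraries. A similar exchange was seen for hexokinases, where Hk1 fell from 37.9, 37.4 and 37.2 to 14.7, 15.3 and 13.6 FPKM (log2 change -1.31 ± 0.07) and Hk2, the hexokinase of insulin-sensitive tissue, rose from 11.5, 11.3 and 10.9 to 46.5, 40.7 and 34.3 FPKM (log2 change 1.76 ± 0.10). Of the pyruvate dehydrogenase kinases, which hold pyruvate out of the mitochondrion's oxidative pathway, Pdk4 rose from 8.87, 9.86 and 9.48 to 73.5, 72.6 and 70.7 FPKM (log2 change 2.82 ± 0.08), Pdk2 rose by 2.18 ± 0.05 and Pdk3 fell by 1.18. Slc16a3, a lactate exporter, fell from 24.2, 20.5 and 25.2 to 4.31, 3.51 and 2.13 FPKM (log2 change -2.52 ± 0.17).

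Within the glycolysis list 18 of 27 tested genes were called higher, 7 by at least 1, and 5 lower (median 0.40). This count depended on scaling, with 14 higher after median-of-ratios scaling and 12 higher and 8 lower on TPM, and it rose to 20 higher without replicate 3. Aldoa (aldolase) rose from 457, 439 and 436 to 1561, 1529 and 1149 FPKM (log2 change 1.65 ± 0.10). Gapdh went from 911, 831 and 877 to 1441, 1257 and 923 FPKM (log2 change 0.44 ± 0.13, adjusted p = 0.00728) and Ldha from 392, 374 and 394 to 701, 594 and 448 FPKM (log2 change 0.56 ± 0.12, adjusted p = 0.001). Pdk1, a target of hypoxia signalling, went from 21.7, 20.5 and 22.8 to 35.1, 29.8 and 22.2 FPKM (log2 change 0.39 ± 0.13, adjusted p = 0.0171). Replicate 3 gave the lowest day 7 value of each, and for Pdk1 the days overlapped. The call of Gapdh was lost on TPM. The call of Pdk1 was lost under each of 3 other scalings and without day 7 replicate 1 (adjusted p = 0.0857), day 7 replicate 2 (0.0528) or day 0 replicate 2 (0.0550). Eno1, an enzyme of every cell, was listed too low to pass the filter.

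Of 27 tested insulin signalling genes 14 were called higher and 10 lower, shares near those over all genes (46.2% and 35.4%). Their median was 0.19, and 0.095, 0.018 and 0.041 under the 3 other scalings. Pde3b, the phosphodiesterase through which insulin restrains lipolysis, rose from 0.635, 0.817 and 0.67 to 49.98, 47.7 and 44.8 FPKM (log2 change 4.83 ± 0.08). Tbc1d4, which holds GLUT4 vesicles back until it is phosphorylated, rose from 0.724, 0.575 and 0.727 to 23.6, 23.2 and 21.6 FPKM (log2 change 3.83 ± 0.07). Akt1 fell from 102, 97 and 96.9 to 57.5, 56.2 and 59.8 FPKM (log2 change -0.76 ± 0.04), and Grb14, an inhibitor of the insulin receptor, from 12.6, 12.6 and 15.2 to 1.93, 2.14 and 2.29 FPKM (log2 change -2.21 ± 0.07). Caveolae are plasma membrane pits rich in adipocytes. Of 7 tested caveolar genes 5 rose, among them Cav1 (69.2, 64.7 and 60.8 to 429, 447 and 498 FPKM, log2 change 2.80 ± 0.06) and Cavin2 (30.9, 33.9 and 31.5 to 243, 236 and 252 FPKM, log2 change 2.89 ± 0.07).

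Mitochondrial genes rose almost as a block. Of 81 tested genes of oxidative phosphorylation, 79 were called higher, 75 of them by at least 1, and 1 lower (median 1.75, against 0.095 over all genes). Atp5b, the catalytic subunit of ATP synthase, rose from 336, 336 and 337 to 2102, 1998 and 1894 FPKM (log2 change 2.57 ± 0.06) and was the fourth most abundant gene at day 7. Cycs (cytochrome c) rose from 11, 12.9 and 11.7 to 212, 167 and 181 FPKM (log2 change 3.86 ± 0.08) and Cyc1 from 56.1, 52.3 and 52.4 to 368, 352 and 337 FPKM (log2 change 2.69 ± 0.05). The member that fell was Cox7a2l, a supercomplex assembly factor, by 0.15 (adjusted p = 0.0211), and that call was lost without day 7 replicate 3 (adjusted p = 0.0964), without day 0 replicate 2 (0.0704) and without day 0 replicate 3 (0.0650). The list took 0.564% of reads at day 0 and 2.23% at day 7. All 20 tested tricarboxylic acid cycle genes were called higher, 18 by at least 1 (median 2.24). Pcx, pyruvate carboxylase, which feeds the cycle and lipogenesis with oxaloacetate, rose most in that list, from 9.67, 9.89 and 10.7 to 637, 637 and 576 FPKM (log2 change 5.80 ± 0.05, adjusted p = 1.17e-16). Idh3a rose from 21.4, 22.7 and 21.8 to 314, 323 and 329 FPKM (log2 change 3.82 ± 0.04).

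Fatty acid oxidation rose together with fatty acid synthesis, with 20 of 21 tested genes called higher, 17 by at least 1, and 1 lower (median 2.54). Acadm, medium-chain acyl-CoA dehydrogenase, rose from 17.7, 18.3 and 18.8 to 316, 269.9 and 271 FPKM (log2 change 3.89 ± 0.07) and Hadhb of the trifunctional protein from 17.8, 17.8 and 18.8 to 197, 195 and 188 FPKM (log2 change 3.35 ± 0.04). At the entry step the forms differed. Cpt1a, the carnitine palmitoyltransferase of liver and most tissues, went from 20.9, 21.4 and 21.7 to 23.6, 26.8 and 26.5 FPKM (log2 change 0.25 ± 0.05, adjusted p = 0.000764), a call that was lost on TPM and after quantile normalization. Cpt1b, the muscle and brown fat form, stayed under 1 FPKM with 0.881, 0.71 and 0.753 FPKM at day 7. It is among the genes called higher but passed the filter only through the cultures labelled NFIA-Tg. Cpt1c, the brain form, fell from 29, 30.3 and 27.8 to 8.53, 9.41 and 9.68 FPKM (log2 change -1.56 ± 0.06). Branched-chain amino acid breakdown rose in 19 of 21 tested genes (median 1.86), with Aldh6a1 going from 6.73, 6.75 and 6.74 to 81.2, 80.2 and 77.7 FPKM. Bcat1, the cytosolic transaminase, fell from 17, 15.6 and 15.8 to 2.35, 2.41 and 2.55 FPKM (log2 change -2.31 ± 0.06). Peroxisomal genes rose in 22 of 23 cases (median 2.28). Catalase (Cat) rose from 26.8, 29.8 and 27.2 to 348, 358 and 349.7 FPKM (log2 change 3.61 ± 0.05) and Ephx2, an epoxide hydrolase, from 0.512, 0.334 and 0.373 to 90.4, 92.1 and 85.5 FPKM (log2 change 6.01 ± 0.06).

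The 2 kinds of ribosome moved in opposite directions. Of 75 tested mitochondrial ribosomal genes 72 were called higher, 35 by at least 1, and 1 lower (median 0.98). Mrpl12 rose from 36.9, 33.1 and 37 to 188, 187 and 176 FPKM (log2 change 2.33 ± 0.05), and the member that fell was Mrpl52, from 65.1, 73 and 73.9 to 41.6, 40.1 and 43.8 FPKM. Of 74 tested cytosolic ribosomal genes 69 were called lower and none higher, 4 of them lower by at least 1 (median -0.62). Rplp1 fell from 2055, 2062 and 2044 to 1305, 1344 and 1194 FPKM (log2 change -0.68 ± 0.07) and Rps20 from 176, 188 and 184 to 82, 71.7 and 76.8 FPKM (log2 change -1.24 ± 0.06). The cytosolic list fell from 3.56% to 2.28% of reads. Ribosomal protein genes have many processed copies that can share reads, and Rpl26 and Rpl30 did not pass the filter, so single values are uncertain.

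Genes of thermogenic fat, the brown and beige adipocytes that burn lipid for heat, were split. Of 34 listed genes 25 were tested, 17 called higher and 4 lower. Ucp1, Cidea and Cpt1b were under 1 FPKM in every WT library and passed the filter only through the cultures labelled NFIA-Tg. Ucp1 and Cpt1b are among the 17 called higher. Ucp1, the proton leak of brown fat, was listed at 0, 0.0553 and 0 FPKM at day 0 and only 0.872, 0.738 and 0.414 FPKM at day 7 (log2 change 0.71 ± 0.10, adjusted p = 3.25e-05). Cidea had 0.0356, 0.117 and 0 FPKM at day 0 and 0.308, 0.12 and 0.0781 FPKM at day 7 and was not called (adjusted p = 0.075). On recovered reads (limma-voom) its log2 change was 1.77 and called, a ratio of very few reads, and it was also called without day 0 replicate 2 (adjusted p = 0.0416) or day 7 replicate 3 (adjusted p = 0.0260). Dio2, Zic1 and Lhx8 did not pass the filter. Cox8b, an oxidase subunit of brown fat and muscle, reached 3.51, 3.09 and 0.751 FPKM and Cox7a1 15.1, 8.8 and 4.96 FPKM, both lowest in replicate 3, against 828, 660.3 and 685 FPKM for the ubiquitous Cox8a and 307, 277 and 267 FPKM for Cox7a2. The tissue forms thus remained a small share of their families.

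Other genes of the same list were abundant. Elovl3, an elongase induced in brown fat by cold, went from 0.0221, 0.0968 and 0.0214 to 109.7, 113 and 105 FPKM (log2 change 6.72 ± 0.06, adjusted p = 1.62e-16). Ppargc1b, a coactivator of mitochondrial genes, rose from 0.0567, 0.0622 and 0.033 to 18.5, 17.9 and 15.4 FPKM (log2 change 4.12 ± 0.07), the potassium channel gene Kcnk3 from 0.0435, 0 and 0.0211 to 23.2, 20.7 and 20.2 FPKM (log2 change 4.45 ± 0.06) and Esrra, an oestrogen-related receptor gene, from 9.2, 10.04 and 10.04 to 29.4, 29.1 and 27.8 FPKM (log2 change 1.47 ± 0.05). Ckb, a creatine kinase, fell from 5.52, 5.42 and 4.71 to 2.24, 1.74 and 1.94 FPKM (log2 change -1.07 ± 0.08). The WT day 7 cultures thus held Elovl3, Kcnk3 and Ppargc1b above 15 FPKM in every library while Ucp1 and Cidea stayed under 1 FPKM in every library.

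Of the lists, those of the extracellular matrix lost the most reads. Collagen chains took 7.85% of reads at day 0 and 2.22% at day 7, and matrix glycoproteins and enzymes 8.75% and 2.17%. Of the 10 most abundant genes at day 0, 6 were matrix genes (Col3a1, Bgn, Col1a1, Col1a2, Sparc and Fn1), and none of these was among the 10 most abundant at day 7. The 10 genes with most reads in each library took 11.6 to 12.1% of reads at day 0 and 6.87 to 7.21% at day 7. Col1a1 fell from 3403, 3089 and 3054 to 412, 458 and 426 FPKM (log2 change -2.88 ± 0.11, adjusted p = 6.32e-11), Col3a1 from 3949, 3725 and 4117 to 501, 543 and 555 FPKM (log2 change -2.88 ± 0.08), and Fn1 (fibronectin) from 2350.1, 2288 and 2316 to 268, 287 and 302 FPKM (log2 change -3.02 ± 0.06). Of 25 tested collagen genes 19 were called lower, 15 by at least 1, and 5 higher. The exceptions included Col15a1, a basement membrane collagen, which rose from 13.4, 14.9 and 12.6 to 128, 130.0 and 130.1 FPKM (log2 change 3.16 ± 0.09, adjusted p = 2.86e-12), and Col5a3, which rose by 0.79 ± 0.07. Of 53 tested matrix glycoproteins and enzymes 48 were called lower, 39 by at least 1, and 2 higher (median -1.88). Thbs1 (thrombospondin 1) fell most, from 1452, 1441 and 1348 to 75.9, 85.5 and 95.7 FPKM (log2 change -4.03 ± 0.08, adjusted p = 2.41e-13). Mmp19 was called higher by 0.16, but its change was -0.012 on TPM and -0.048 after quantile normalization.

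**Figure D5:**
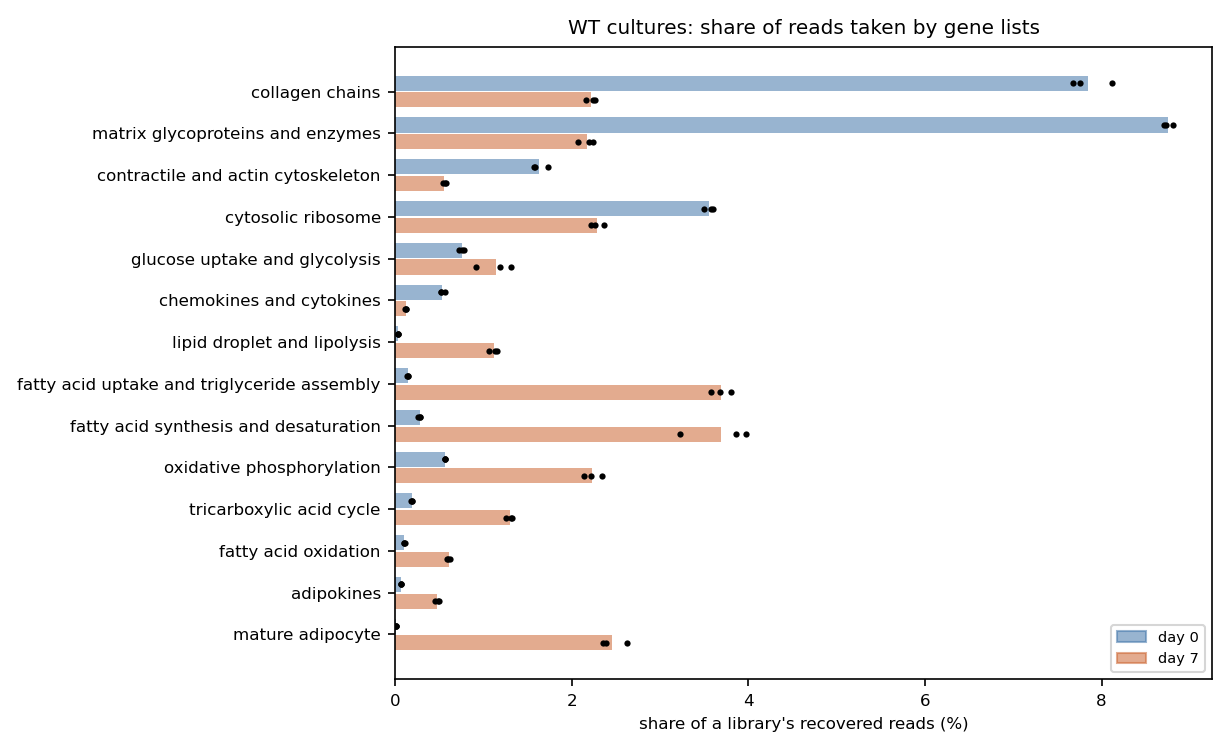
Share of a library's recovered reads, in percent (x axis, from 0), taken by the members of 14 gene lists in WT cultures at day 0 (blue) and day 7 (orange). Bars are means of 3 libraries and points the libraries: collagen chains drop from 7.85 to 2.22% and fatty acid uptake and triglyceride assembly climbs from 0.141 to 3.69%.

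Contractile and actin genes fell with the matrix, 24 of 27 called lower, 19 by at least 1, and 2 higher (median -1.56). Acta2, smooth muscle α-actin, fell from 415, 315 and 312 to 51.8, 63.7 and 60.3 FPKM (log2 change -2.54 ± 0.13, adjusted p = 1.39e-09), Tpm1 (tropomyosin 1) from 269, 267 and 256 to 35.2, 35.9 and 40.6 FPKM (log2 change -2.80 ± 0.05), and Actb, often used as a reference gene, from 1399, 1292 and 1267 to 495, 533 and 461 FPKM (log2 change -1.41 ± 0.08). Preadipocyte and stromal markers were lower for 19 of 21 tested genes, 18 by at least 1, and higher for 2. Pdgfra, the receptor that marks adipocyte progenitors, fell from 81.7, 83.7 and 95.9 to 26.7, 27.5 and 31.8 FPKM (log2 change -1.57 ± 0.09, adjusted p = 3.31e-09). Ly6a (Sca-1) fell from 1077, 1398 and 1244 to 495, 513 and 597 FPKM (log2 change -1.21 ± 0.14), Pdpn (podoplanin) from 72.1, 77.1 and 79.4 to 6.65, 7.54 and 7.83 FPKM (log2 change -3.21 ± 0.09), and Mfap5 from 83.7, 85.2 and 88.8 to 8.01, 9.36 and 8.95 FPKM (log2 change -3.15 ± 0.08). Pdgfra and Ly6a were still well detected in all 3 day 7 libraries.

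Itga11 and 5 genes below were among the 12 largest decreases. Itga11, a collagen-binding integrin gene, fell from 41.2, 37.1 and 43.6 to 0.637, 0.813 and 0.782 FPKM (log2 change -4.58 ± 0.08, adjusted p = 2.98e-14). The log2 changes of Cpxm1, Fndc1, Lbh, Lrrc32 and Cemip, a hyaluronan-degrading protein gene, were -4.42 ± 0.07, -4.09 ± 0.14, -3.94 ± 0.10, -3.95 ± 0.09 and -3.91 ± 0.09. In TGF-β and BMP signalling 29 of 38 tested genes were called lower, 16 by at least 1, and 4 higher (median -0.88). The BMP antagonist Grem1 fell from 32.9, 34.9 and 31.9 to 2.79, 2.68 and 3.16 FPKM (log2 change -3.14 ± 0.09) and the follistatin-like Fstl1 from 889, 887 and 892 to 163, 185 and 189.9 FPKM (log2 change -2.31 ± 0.09), while Acvr1c, the adipocyte activin receptor ALK7, rose from 0.00916, 0.00503 and 0.0089 to 9.37, 9.3 and 10.2 FPKM (log2 change 3.40 ± 0.05). Of 35 tested Wnt pathway genes 23 were called lower and 8 higher (median -0.43). Wnt modulators were among those lost, with Sfrp1 going from 388, 361 and 418 to 59.5, 69.4 and 82 FPKM (log2 change -2.46 ± 0.10) and Rspo2, a Wnt agonist, from 25.6, 27.4 and 26 to 2.32, 2.94 and 3.69 FPKM (log2 change -2.79 ± 0.12), whereas the receptor gene Fzd4 rose from 7.03, 6.64 and 6.85 to 22.2, 23.1 and 22.8 FPKM (log2 change 1.60 ± 0.06).

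Chemokines were highly expressed before induction and fell. Of 23 tested chemokine and cytokine genes (33 listed), 18 were called lower, 16 by at least 1, and 1 higher (median -1.48). Ccl2, the monocyte attractant MCP-1, fell from 461, 495 and 502 to 29.3, 35.8 and 48.9 FPKM (log2 change -3.67 ± 0.19, adjusted p = 1.1e-09). Cxcl5 showed the largest fall of any gene named, from 112, 86.2 and 145 to 1.88, 1.72 and 2.8 FPKM (log2 change -5.18 ± 0.18, adjusted p = 2.55e-11), and Cxcl1 fell from 86, 74.8 and 97.6 to 3.65, 3.69 and 5.7 FPKM (log2 change -4.04 ± 0.19). Il1rl1, the receptor of interleukin 33, fell from 25.4, 27.7 and 26.8 to 0.758, 0.796 and 0.928 FPKM (log2 change -3.92 ± 0.05). For Ccl2, Cxcl1 and Cxcl5 replicate 3 was the highest of the day 7 libraries, yet well below every day 0 library. Tnf and Il1b did not pass the filter. The summed macrophage markers took 0.00244 to 0.00328% of reads at day 0 and 0.00376 to 0.00392% at day 7, and their part in the chemokine changes was not tested.

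Of 30 tested NF-κB pathway genes, 19 were called lower and 5 higher (median -0.50). Vcam1, an adhesion molecule, fell from 103, 110.4 and 105 to 21.7, 24.4 and 26.3 FPKM (log2 change -2.10 ± 0.07) and Ptgs2 (cyclooxygenase 2) from 10.2, 9.45 and 9.83 to 0.714, 0.764 and 0.998 FPKM (log2 change -2.57 ± 0.07). Tnfaip3, the inhibitor A20, rose from 6.03, 6.59 and 6.51 to 15.1, 14.7 and 13.9 FPKM (log2 change 1.08 ± 0.07), and Ptges, a prostaglandin E synthase, from 13.5, 13.8 and 14 to 52.2, 53.3 and 48.7 FPKM (log2 change 1.83 ± 0.05). The acute-phase list was divided, 6 of 19 higher and 10 lower. Saa3, an inflammation-induced serum amyloid, fell from 559.9, 473 and 995 to 42.6, 42.9 and 53.1 FPKM (log2 change -3.77 ± 0.31, adjusted p = 1.14e-07), with the day 0 libraries spread widely. In contrast, Hp (haptoglobin) rose from 22, 14.4 and 28.1 to 260.4, 232 and 224 FPKM (log2 change 3.46 ± 0.20, adjusted p = 4.49e-09) and Orm1 (orosomucoid 1) from 0.106, 0.117 and 0.103 to 136, 135 and 122 FPKM (log2 change 6.90 ± 0.09, adjusted p = 3.39e-15). Orm1 and Orm2 are close copies and can share reads.

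For interferon-stimulated genes the balance of calls turned with the scaling. Of 41 tested, 16 were called higher, 2 lower and 23 not called (median 0.18). The counts were 12 higher and 3 lower after median-of-ratios scaling, 10 and 7 on TPM (median -0.00066), and 8 and 9 after quantile normalization (median -0.0269). Ifit3, an antiviral protein gene, had 218, 365 and 197 FPKM at day 0 and 126, 136 and 146 FPKM at day 7. The call of Ifit3 (adjusted p = 0.0414) was lost when any WT library but day 0 replicate 3 was left out, with adjusted p between 0.0513 and 0.167. Gbp3, a guanylate-binding protein gene, rose from 65.4, 84.4 and 64.8 to 188, 196 and 206 FPKM (log2 change 1.46 ± 0.19, adjusted p = 1.06e-05).

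Proliferation genes rose during differentiation. All 32 tested DNA replication genes were called higher, 17 of them by at least 1 (median 1.04), and so were 34 of 35 tested mitosis genes, 6 by at least 1 (median 0.65). Mki67, which encodes the proliferation antigen Ki-67, went from 26.7, 27 and 27.4 to 64, 65.4 and 61.5 FPKM (log2 change 1.21 ± 0.08, adjusted p = 9e-09). Pcna, the polymerase clamp, rose from 124, 127 and 129 to 274, 269 and 254 FPKM (log2 change 1.06 ± 0.05, adjusted p = 2.32e-10), and Ccne2, the cyclin of S-phase entry, from 6.63, 5.9 and 6.65 to 30.6, 33 and 35.6 FPKM (log2 change 2.20 ± 0.07). The transcription factor gene E2f2 rose from 0.596, 0.564 and 0.579 to 8.02, 8.75 and 8.5 FPKM (log2 change 2.58 ± 0.06) and the mitotic kinase gene Aurka from 16.9, 17.7 and 16.5 to 47.1, 46.5 and 45.1 FPKM (log2 change 1.39 ± 0.07). The exception was Kif23, a motor of cytokinesis, which fell from 16.7, 18 and 16.9 to 13.5, 14 and 13.8 FPKM (log2 change -0.30 ± 0.05). On TPM and after quantile normalization the medians were 0.88 and 0.79 for replication and 0.48 and 0.47 for mitosis. The share of cycling cells was not measured.

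The list of G1 regulators had 9 of 21 called higher and 8 lower, shares near those over all genes (46.2% and 35.4%; median 0.059, and -0.011, -0.091 and -0.097 under the 3 other scalings). Cdkn2c (p18) rose from 19.5, 20.3 and 21 to 81.7, 74.2 and 79.2 FPKM (log2 change 1.90 ± 0.06) and Cdkn1c (p57), a glucocorticoid target, from 3.03, 2.95 and 2.67 to 26.6, 22.2 and 26.1 FPKM (log2 change 2.74 ± 0.10). Cdkn1a (p21) had 221, 230.3 and 215 FPKM at day 0 and 219, 209 and 197 FPKM at day 7 and was not called (adjusted p = 0.175), although it was called lower under each of 3 other scalings. Cdkn2a, the p16 and p19ARF locus, fell from 223, 230.2 and 233 to 173, 152 and 165 FPKM (log2 change -0.48 ± 0.08). Of the D-type cyclins, Ccnd1 fell from 15, 18.9 and 15.9 to 8.32, 7.67 and 9.51 FPKM, whereas Ccnd2 and Ccnd3 rose by 0.47 ± 0.09 and 0.60 ± 0.04.

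Promoter letters were examined for the groups that moved together. Windows of 300 bases, from 250 before to 50 after the start, were taken from RefSeq (GRCm38.p6), and letters were searched on both strands. CCAAT, the box bound by NF-Y, and TTTGAA, a form of the cell cycle homology region, lie in many promoters of mitotic genes. In the mitosis list 29 of 35 genes had 31 windows, of which 74.2% held CCAAT and 74.2% TTTGAA, against 37.4% and 17.9% of all 32851 windows and 38.0% and 11.7% of those of the genes tested. Both were present in 18 of the 29 genes. In the 29 windows of 25 DNA replication genes, 20.7% held TTTGGCGC and 17.2% TTTCCCGC, 2 forms of the E2F site, against 0.514% and 1.07% of all windows and 0.969% and 2.03% of those of the genes tested. The shares of CCAAT and TTTGAA there were 65.5% and 17.2%. In the 85 windows of 64 genes of adipokine, lipid droplet, fatty acid uptake and fatty acid synthesis lists, CCAAT was found in 38.8% and TTTGAA in 12.9%, and neither E2F form, the C/EBP palindrome TTGCGCAA (0.183% of all windows, 0.301% of those of the genes tested) nor direct repeats of AGGTCA with 1 base between (0.0396% and 0.0244%) was found. This says only that these exact letters are not in these windows.

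The following promoters are shown so that the letters can be seen. The first 3 are the mitosis members highest at day 0 among those with both CCAAT and TTTGAA. The others are the replication gene Mcm6, with 2 copies of the E2F form TTTGGCGC, and the adipocyte genes Adipoq and Plin1. All were picked after the matches were known. Each runs 5′ to 3′ along the gene's strand, over the 250 bases that end at the base before the start, with matches in capitals (a match on the opposite strand is in capitals as its reverse complement). Neighbouring matches of Ube2c overlap.
Top2a (chr11:99024190-99024439, minus strand): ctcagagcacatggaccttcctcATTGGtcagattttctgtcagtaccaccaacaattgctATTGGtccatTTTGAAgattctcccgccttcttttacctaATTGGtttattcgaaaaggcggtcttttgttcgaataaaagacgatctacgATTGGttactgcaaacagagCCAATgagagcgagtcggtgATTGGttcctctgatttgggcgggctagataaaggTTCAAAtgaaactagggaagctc
Ube2c (chr2:164769679-164769928, plus strand): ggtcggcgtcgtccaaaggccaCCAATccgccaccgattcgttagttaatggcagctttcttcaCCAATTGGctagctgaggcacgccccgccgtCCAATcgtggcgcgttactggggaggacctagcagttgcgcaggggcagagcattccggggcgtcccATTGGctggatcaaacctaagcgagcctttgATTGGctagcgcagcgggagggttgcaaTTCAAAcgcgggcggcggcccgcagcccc
Cdk1 (chr10:69352913-69353162, minus strand): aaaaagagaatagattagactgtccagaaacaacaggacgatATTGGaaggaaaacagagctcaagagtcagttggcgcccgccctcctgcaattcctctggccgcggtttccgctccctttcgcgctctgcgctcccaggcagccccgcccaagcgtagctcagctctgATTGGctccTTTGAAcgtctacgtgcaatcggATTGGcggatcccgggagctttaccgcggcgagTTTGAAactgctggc
Mcm6 (chr1:128359706-128359955, minus strand): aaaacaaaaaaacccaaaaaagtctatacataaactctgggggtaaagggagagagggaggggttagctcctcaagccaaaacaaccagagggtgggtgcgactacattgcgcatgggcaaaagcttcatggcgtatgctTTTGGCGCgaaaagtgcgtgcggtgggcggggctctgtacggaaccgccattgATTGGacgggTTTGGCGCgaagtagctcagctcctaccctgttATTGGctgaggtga
Adipoq (chr16:23146286-23146535, plus strand): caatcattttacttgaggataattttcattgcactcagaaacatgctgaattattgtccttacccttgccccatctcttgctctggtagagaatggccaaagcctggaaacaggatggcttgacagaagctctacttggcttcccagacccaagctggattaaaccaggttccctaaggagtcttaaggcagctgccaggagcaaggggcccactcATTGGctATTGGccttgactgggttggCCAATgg
Plin1 (chr7:79732777-79733026, minus strand): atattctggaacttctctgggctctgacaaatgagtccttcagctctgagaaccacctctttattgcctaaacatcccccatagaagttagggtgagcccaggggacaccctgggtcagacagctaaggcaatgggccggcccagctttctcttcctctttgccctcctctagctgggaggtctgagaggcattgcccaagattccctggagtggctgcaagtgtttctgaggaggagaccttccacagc

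Top2a, a topoisomerase of mitotic chromosomes, rose from 52.9, 53.9 and 54.4 to 86.8, 89.8 and 86.1 FPKM, Ube2c, a ubiquitin conjugase of mitotic exit, from 50.3, 50.8 and 50.3 to 75.7, 75.9 and 77.8 FPKM, and Cdk1, the mitotic kinase, from 34.3, 32.9 and 33.6 to 68.5, 67.6 and 66.3 FPKM. Mcm6, a subunit of the replicative helicase, rose from 59.6, 63.9 and 59.2 to 87.9, 84.5 and 86.8 FPKM. The Top2a stretch shown holds CCAAT at 6 places and TTTGAA at 2, and that of Cdk1 3 and 2. Adipoq, which rose by 10.14 ± 0.06, holds CCAAT at 3 places within 34 bases of the start, and Plin1, which rose by 8.62 ± 0.08, holds none of the letters searched. Fabp4 has no entry in the table.

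Some genes went from near absence to clear expression. Under 0.1 FPKM in all 3 day 0 libraries and at least 5 FPKM in all 3 day 7 libraries were 64 genes, and 0 genes did the reverse. With wider limits of 0.5 and 2 FPKM the numbers were 216 on and 49 off. Zbtb16, the glucocorticoid-induced factor PLZF, was at 0 reads in the 3 day 0 libraries and at 24.2, 20.9 and 20.3 FPKM at day 7, at least 876-fold higher against a floor of 3 reads per library. Apoc3, an apolipoprotein gene best known from liver, was at 0 reads at day 0 and at 43.2, 39.2 and 27.2 FPKM at day 7 (at least 214-fold higher). Ffar4, the omega-3 fatty acid receptor GPR120, reached 23.7, 19 and 13.9 FPKM (at least 207-fold higher), Plbd1 34.2, 35 and 31.2 FPKM (at least 519-fold higher) and Ubd, a ubiquitin-like protein gene, 32.8, 33.3 and 34.8 FPKM (at least 248-fold higher). Floors cover counting error only.

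The genes that switched on by the 0.1 and 5 FPKM rule included receptors. Adora1, the adenosine A1 receptor that restrains lipolysis, reached 25.7, 23.9 and 21.9 FPKM at day 7, Klb, the β-Klotho co-receptor of FGF21, 38.6, 40.6 and 35.2 FPKM, and Mc2r, the corticotropin receptor, 28.5, 27.5 and 27 FPKM. Mrap, the accessory protein of Mc2r, switched on with it (71, 65.4 and 52.5 FPKM). Tshr, the thyrotropin receptor, reached 7.01, 7.83 and 6.87 FPKM and Ffar2, a short-chain fatty acid receptor, 6.47, 8.16 and 7.11 FPKM. Lgals12, a galectin of lipid droplets, went from 0.0149, 0 and 0.0145 to 95.7, 103 and 97.9 FPKM (log2 change 6.63 ± 0.05) and Car2, a carbonic anhydrase, from 0.0851, 0.0234 and 0.0207 to 73.1, 73.4 and 84.3 FPKM (log2 change 6.22 ± 0.07).

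Targets of the cocktail's hormones were examined as lists. Of 15 glucocorticoid targets, 9 were called higher and 4 lower (median 1.15), 5 days after dexamethasone was withdrawn from the medium. Over all genes 46.2% were called higher and 35.4% lower. With 9 still higher, the number lower was 5 after median-of-ratios scaling and 6 on TPM and after quantile normalization (medians 1.06, 1.03 and 1.02). Whether these changes stem from dexamethasone was not tested. Glul (glutamine synthetase) rose from 15.6, 14.7 and 16 to 388, 361 and 359 FPKM (log2 change 4.49 ± 0.04), while Sgk1 fell from 31.9, 28.5 and 30.4 to 11.4, 9.6 and 11.7 FPKM (log2 change -1.40 ± 0.08) and Mt2 (metallothionein 2) from 224, 192 and 243 to 101, 91.8 and 65.4 FPKM (log2 change -1.36 ± 0.16). In the thyroid hormone axis, the target Thrsp rose from 0.0376, 0.165 and 0.0365 to 339, 288 and 276 FPKM, the receptor gene Thra fell from 51, 52.2 and 54.6 to 29.8, 30.3 and 29.9 FPKM (log2 change -0.79 ± 0.04), and the inactivating deiodinase gene Dio3 from 23.1, 20.2 and 26.2 to 8.06, 8.95 and 10.8 FPKM (log2 change -1.23 ± 0.15). In the adrenergic and cAMP list 11 of 26 tested genes were called higher and 11 lower (median -0.067). These shares were near those over all genes (46.2% and 35.4%), so the counts do not set this list apart. Adenylyl cyclases exchanged places: Adcy5 went from 0.0164, 0.018 and 0.0159 to 20.2, 22.1 and 20.6 FPKM (log2 change 4.43 ± 0.06), Adcy3 fell from 17.2, 16.6 and 17.2 to 5.36, 5.4 and 6.2 FPKM (log2 change -1.44 ± 0.07) and Adcy7 from 5.32, 5.39 and 5.14 to 0.415, 0.442 and 0.409 FPKM (log2 change -2.14 ± 0.09). Prkar2b, the adipocyte regulatory subunit of protein kinase A, rose from 9.0, 7.8 and 9.07 to 126, 127 and 149 FPKM (log2 change 3.81 ± 0.08).

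Of 9 tested genes of the insulin-like growth factor list, 6 were called lower and 2 higher. The 2 that rose were Igf1, from 3.9, 3.92 and 3.81 to 15.6, 19 and 20.4 FPKM (log2 change 1.98 ± 0.11), and the binding protein gene Igfbp3, from 6.27, 7.9 and 9.4 to 54.7, 51.3 and 56.3 FPKM (log2 change 2.65 ± 0.19), whereas Igfbp7 fell from 371, 366 and 388 to 131, 124 and 141 FPKM (log2 change -1.50 ± 0.08). Of 17 tested genes of retinoid handling 8 were called higher, a share near that over all genes (46.2%), and 9 lower (35.4% over all genes). Their median log2 change was -0.26, while the list's summed share of reads was 0.0415 to 0.0416% at day 0 and 0.152 to 0.161% at day 7. Adh1, an alcohol dehydrogenase, rose from 0.769, 1.33 and 1.01 to 274, 255 and 232 FPKM (log2 change 6.97 ± 0.16, adjusted p = 6.99e-13) and Aldh1a7 from 2.47, 2.38 and 2.58 to 285, 311 and 309 FPKM (log2 change 6.44 ± 0.07), while the binding protein gene Crabp1 fell from 28, 33.1 and 33.2 to 3.67, 2.79 and 2.61 FPKM (log2 change -3.02 ± 0.10). Of 28 stress response genes of the endoplasmic reticulum and the integrated stress response 16 were called lower and 9 higher (median -0.29). Over all genes 35.4% were called lower and 46.2% higher. The counts were 18 lower and 6 higher after median-of-ratios scaling, and 19 and 5 both on TPM and after quantile normalization. The chaperone genes Calr and Hyou1 fell by 0.70 and 0.84, and Atf3 rose from 1.8, 2.49 and 1.73 to 12.3, 11.8 and 12.6 FPKM (log2 change 2.15 ± 0.09). Immediate-early genes, which also respond to handling, were lower for 13 of 15 tested and higher for none. Junb fell from 39.5, 38.2 and 35.3 to 5.91, 5.4 and 6.76 FPKM (log2 change -2.46 ± 0.09), and Myc was not called (adjusted p = 0.14).

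The nuclear factor I family, to which NFIA belongs, changed member by member. Nfia went from 6.42, 6.3 and 6.51 to 12.5, 13 and 12 FPKM (log2 change 0.87 ± 0.05, adjusted p = 6.78e-09) and Nfib from 0.413, 0.379 and 0.344 to 6.98, 7.77 and 7.07 FPKM (log2 change 2.58 ± 0.09, adjusted p = 4.53e-11). Nfix fell from 75.4, 76.2 and 73.9 to 30.9, 32.5 and 31 FPKM (log2 change -1.23 ± 0.04, adjusted p = 1.83e-11), and Nfic had 42, 38.8 and 39.3 FPKM at day 0 and 39.1, 40.6 and 38.2 FPKM at day 7 and was not called (adjusted p = 0.588), although it was called lower under each of 3 other scalings. Nfix was the highest of the 4 at day 0 and Nfic at day 7 in every library.

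The change in WT cultures was set against that in the cultures labelled NFIA-Tg, in the same fit, for a list of 21 genes of which 20 were tested. Among the day 7 libraries labelled NFIA-Tg, replicate 1 stood apart (chi-square per degree of freedom 28.75 and 29.3, against 6.76 for the other pair). Nfia itself stood at 11.3, 12.5 and 11.9 FPKM at day 0 and 6.44, 7.32 and 7.2 FPKM at day 7 in the libraries labelled NFIA-Tg. It was thus above the WT level at day 0 and below it at day 7. The day 7 level does not bear out the label but does not settle it either, and the cause was not tested. Over all genes the difference between the labelled genotypes was called for 9051 of 12553 (72.1%), and for 17 of the 20. Without the library that stood apart, it was called for 8815 genes, and none of the 17 reversed under any alternative run, while the call of Mki67 was lost after quantile normalization (difference -0.24, adjusted p = 0.0606). Cebpa rose more in WT (log2 change 4.27 ± 0.08) than in the cultures labelled NFIA-Tg, where it went from 32.7, 39.2 and 40.1 to 72.1, 74.5 and 66.1 FPKM (difference -3.36 ± 0.11, adjusted p = 1.43e-10). The difference for Pparg (-1.75 ± 0.07, adjusted p = 3.79e-10) went with day 0, where the libraries labelled NFIA-Tg had 14.5, 14.5 and 16.6 FPKM, while at day 7 they had 71.5, 73.8 and 72 FPKM, close to the WT values. Ucp1 reached 208, 248 and 268 FPKM at day 7 in the libraries labelled NFIA-Tg (difference 7.17 ± 0.15, adjusted p = 4.75e-12) and Cidea 23.3, 23.3 and 23.9 FPKM (difference 4.45 ± 0.10, adjusted p = 1.31e-11), against less than 1 FPKM in WT. Adipoq reached 259, 276 and 240.4 FPKM there, below every WT library (difference -2.44 ± 0.08, adjusted p = 1.1e-10). The progenitor marker Pdgfra was down to 3.2, 4.31 and 3.48 FPKM there (difference -2.80 ± 0.13, adjusted p = 1.34e-09), so it fell less in WT. Other differences between the cultures and the transgene cannot be told apart.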

How the data were processed

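The authors deposited 1 table per library with FPKM values for 24825 genes, the only unit used. Per the submitters' processing notes, STAR 2.7.8a, StringTie 2.1.1 and the mm9 genome build were used. The counting rule, strand setting and annotation: not given in the sources used here. Trizol and RNeasy columns yielded the RNA, and a TruSeq Stranded kit the poly(A) libraries, per the labels' protocols. FPKM was read from the fourth column: the day 0 files end in empty columns. FPKM times gene length gave whole reads (tolerance 0.01) and so each library's depth.

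The test was limma 3.58.1 in R 4.3.3 (eBayes with a mean-variance trend, two-sided) on log2(FPKM + 1), over the 12 culture libraries in 1 fit of 4 groups, for genes with at least 1 FPKM in at least 3 of them. It was also run on simulated data in which few genes changed. That setting held neither a change of most genes nor a library that stood apart, so it cannot check the test under these conditions. Alternatives were other pseudocounts, filters, scalings and variance models, limma-voom on recovered reads, the 6 WT libraries alone, a replicate block and each library left out in turn. The list counts without WT day 7 replicate 3 were added after seeing the data.

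Genes and lists were chosen with earlier results of these data known. Genes named are a list of 21, the 12 largest separated changes each way at a mean of 5 FPKM or more (predicted, ribosomal and histone genes left out), up to 2 called members of each list each way with the list's most abundant members, members of isoform families, and switched genes. Other genes were named after their values were seen as exceptions or examples. Scripts used Python 3.11.15. The iWAT libraries were not used. Hmgcs1 was not analysed here.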

Additional observations from a re-analysis of the deposited data

Results flagged for a closer look

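For 17 of the 20 genes compared, the change from day 0 to day 7 differed between the genotypes as labelled, by the limma contrast of the 2 changes at an adjusted p under 0.05. Values are the log2 change in the cultures labelled NFIA-Tg minus that in WT cultures. The difference was positive for Ucp1 (7.174), Cidea (4.45) and Cebpb (0.8208). Cebpb fell in WT (log2 change -0.84) and was not called in the cultures labelled NFIA-Tg (log2 change -0.019, adjusted p = 0.92). Among adipocyte regulators and products, the rise was smaller in the cultures labelled NFIA-Tg for Cebpa (-3.356), Adipoq (-2.443), Pparg (-1.752), Lipe (-0.8559), Fabp4 (-0.7756), Plin1 (-0.5613) and Pnpla2 (-0.3203). A smaller change need not mean a lower level at day 7. Fabp4 had a day 7 mean of 25679 FPKM there against 22169 FPKM in WT, and a day 0 mean of 16.6 against 7.76 FPKM. For Pparg the day 7 values there were close to those of WT. Among progenitor, matrix and contractile genes the values were -2.797 for Pdgfra, -2.411 for Col1a1, -2.379 for Dlk1 and -1.065 for Acta2. Pdgfra, Col1a1 and Acta2 fell further in the cultures labelled NFIA-Tg, while Dlk1 rose in WT (0.73) and fell there (-1.65). The chemokine gene Ccl2 had -2.166 and the proliferation gene Mki67 -0.4385, a call that was lost after quantile normalization (-0.24, adjusted p = 0.0606). For Nfia, which rose in WT and fell in the cultures labelled NFIA-Tg, the value was -1.559. Its level at day 7 does not bear out the label but does not settle it, and the cause was not tested. Cebpd, Slc2a4 and Saa3 were not called, with adjusted p of 0.93, 0.117 and 0.766.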

How the results depend on the processing

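Over the alternatives run, the genes called in WT ranged from 8322 (filter at 5 FPKM) to 11842 (no filter), and from 9854 to 9945 with a library left out. The genes called for the difference between labelled genotypes ranged from 7371 to 10364, and from 8569 to 8815 with a library left out. Both counts stayed within 1.5 times. Same-numbered day 0 and day 7 WT libraries did not deviate together (r of -0.0387, 0.0373 and 0.0115), so the numbers were not taken as pairs. With a replicate block 10093 and 8755 genes were called, and Ifit3 lost its call. Of the 293 named genes tested, 18 changed a call, or reversed while called, under some alternative, and 8 that were not called turned direction under at least 1. Lgals1 reversed to 0.22 after quantile normalization, and Mmp19 to -0.012 on TPM and -0.048 after quantile normalization. The median of the interferon-stimulated list reversed to -0.00066 on TPM and -0.027 after quantile normalization. The cause was not tested. Depth limits genes near the floor of 3 reads per library, such as Lep, Ucp1 and Cidea in WT.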
